A study of Rattus norvegicus with 18 samples.

Results

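Glucose enters a cell through transporters of the SLC2A family and is then broken down by the enzymes of glycolysis. Transcripts of 10 genes of this route were followed through rat testis cells, namely the glucose transporter genes Slc2a1 and Slc2a3 and the enzyme genes Hk1, Hk2, Gpi, Pfkp, Aldoa, Tpi1, Pgk1 and Eno1. They were chosen by name, and every probe set that the array annotation ties to 1 of them was taken. This gave 20 of the probe sets on the arrays, of which 6 are hexokinase control probe sets. The other 14 measure 10 of 13807 genes and are 14 of the 31042 counted probe sets, 13 on the array type named A here and 1 on type B. Lactate dehydrogenases were left out.

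The study took 9 populations of testis cells, all from rats 22 days old, and ran each on both types of 1-colour oligonucleotide array, 18 arrays in all with 1 per population and type. Of these populations 7 were germ cells. One had bound to laminin, a protein of the basement membrane, and one had not bound. The labels call both cultured but give no day, and do not say how they relate to the cells on feeders. Further germ cells had been kept for 1, 5, 10 or 20 days on STO feeders, a mouse embryonic fibroblast line, or for 20 days on MSC1 feeders, a mouse Sertoli cell line. The feeders are mouse cells on rat arrays, and the labels do not say whether they were removed before RNA was taken. The last 2 populations were somatic, the interstitial cells between the tubules and the somatic cells of the tubules. No strain, genotype or number of animals is given in the sources used here. With no replicates, a fold between populations compares single libraries and has neither an error nor a p-value. Its precision is limited by how few arrays there are.

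Glycolysis splits glucose into pyruvate in the cytosol. Hexokinases trap glucose as glucose 6-phosphate, the isomerase Gpi and phosphofructokinase turn it into fructose 1,6-bisphosphate, aldolase and triose phosphate isomerase yield the 3-carbon sugars, and phosphoglycerate kinase and enolase work in the ATP-yielding steps after them. In the seminiferous tubule, Sertoli cells are known for taking up glucose and releasing lactate, which spermatocytes and spermatids use as fuel. Spermatogonia sit outside the barrier that Sertoli cells form and meet glucose directly. Meiotic cells are also known for switching to testis forms of some of these enzymes, such as Pgk2 in place of the X-linked Pgk1.

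Marker genes matched the labels in broad outline, and the STO day 20 library stood apart. The summed signal of 6 general germ cell genes was 14241.5 to 32446.1 in the 7 germ cell libraries and 769.8 to 800.9 in the somatic ones, the lowest germ cell value being that of the laminin-binding cells. The summed signal of 9 spermatocyte genes was 18382.3 in non-binding cells and 14489.1 on STO day 20, against 1360.9 to 3584.1 in the other 5 germ cell libraries. The results on groups of libraries, the correlations and the time on feeders are therefore also given without it. The interstitial library led in Leydig cell genes and the tubular library in Sertoli cell genes. The Gapdh control's 3' signal over its 5' signal, a sign of shortened RNA, was 14.7 to 29.7 on type A in the 5 feeder libraries and 5.63 to 11.2 in the others. On type B the feeder libraries, reaching 27.1, overlapped the others, which were between 5.33 and 16.7. The beta-actin control overlapped on both types, its feeder libraries reading 25.8 to 94.3 against 8.91 to 67.3 elsewhere by type A arrays, and 21.0 to 95.4 against 11.6 to 48.9 by type B arrays. Array error was read from 100 probe sets present on both types. Their log2 folds had a standard deviation per type of 0.25 on average over all pairs of populations, so that 2 standard deviations are 1.40-fold. Single probe sets differed by more, the largest difference in log2 fold between the types being 1.00 to 1.34 in the comparisons made here. These values cover the arrays and not animals, cultures or amplification.

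Signals are linear intensities that the authors scaled to an average of 250 on each array, and a floor of 50 was set under them before any fold. A gene counts as called here at a fold of 3 or more with 250 or more on the brighter side. Levels are compared between libraries and never between genes, since probe sets differ in how well they bind.

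The promoter windows of the genes called lower in laminin-binding cells than in both somatic fractions, Pfkp, Tpi1 and Eno1, are shown because these members differed together. RefSeq windows on the GRCr8 build were matched for 8 of the 10 genes, 12 windows in all, each of 300 bases from 250 before to 50 after a start site. Capitals mark GGGCGG, the core letters of a GC box, and ACGTG, the core letters of a hypoxia response element, on either strand (CCGCCC and CACGT on the other). Matches may overlap each other, though none did in the 4 windows shown. The windows are Pfkp on chr17:68639563-68639862, plus strand, Tpi1 on chr4:159305039-159305338, minus strand, and for Eno1 chr5:166002617-166002916 and chr5:166003111-166003410, plus strand.
Pfkp: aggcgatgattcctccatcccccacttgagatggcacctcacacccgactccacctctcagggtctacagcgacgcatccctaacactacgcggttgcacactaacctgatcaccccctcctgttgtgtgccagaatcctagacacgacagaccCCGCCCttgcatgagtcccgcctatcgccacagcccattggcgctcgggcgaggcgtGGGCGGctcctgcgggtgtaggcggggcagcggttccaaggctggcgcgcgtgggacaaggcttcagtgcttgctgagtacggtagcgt
Tpi1: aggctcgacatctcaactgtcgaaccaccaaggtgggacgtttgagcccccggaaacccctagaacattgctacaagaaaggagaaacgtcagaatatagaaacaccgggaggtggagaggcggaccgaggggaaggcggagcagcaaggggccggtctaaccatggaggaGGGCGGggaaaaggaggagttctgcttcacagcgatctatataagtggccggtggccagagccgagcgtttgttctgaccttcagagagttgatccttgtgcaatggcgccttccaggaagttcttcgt
Eno1 window 1: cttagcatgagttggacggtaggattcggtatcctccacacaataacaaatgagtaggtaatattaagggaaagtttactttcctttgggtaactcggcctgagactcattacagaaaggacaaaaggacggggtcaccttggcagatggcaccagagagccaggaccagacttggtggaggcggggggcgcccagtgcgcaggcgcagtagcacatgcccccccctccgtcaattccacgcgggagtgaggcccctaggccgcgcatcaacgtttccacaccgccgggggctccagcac
Eno1 window 2: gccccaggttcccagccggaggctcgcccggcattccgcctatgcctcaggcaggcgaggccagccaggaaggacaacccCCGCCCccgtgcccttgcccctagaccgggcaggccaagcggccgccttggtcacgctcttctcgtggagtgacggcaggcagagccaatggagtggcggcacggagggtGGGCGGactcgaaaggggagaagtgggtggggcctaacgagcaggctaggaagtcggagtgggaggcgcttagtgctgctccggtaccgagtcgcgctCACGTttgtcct
The Pfkp window held GGGCGG letters 2 times, at -96 and -39 from the start site, and the Tpi1 window 1 time, at -79. The downstream Eno1 window held them 2 times, at -170 and -60, and ACGTG 1 time, at 39 after the start, while the upstream Eno1 window held neither. Over the members, GGGCGG was in 7 of 12 windows and ACGTG in 5 of 12. Over all 33469 windows of this length the shares were 33.1% and 19.3%. These matches are letters in a window and not measured sites.

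Slc2a1 (chr5:138002522-138030742 on GRCr8, like all gene positions here) encodes GLUT1, the widely expressed glucose transporter. Where the probes lie within the genes is not given in the files used. Its signal (1370848_at) was 112.2 in laminin-binding and 101.4 in non-binding cells. On STO feeders it was 155, 232.8, 126.2 and 196.9 on days 1, 5, 10 and 20, and on MSC1 feeders it was 218. The interstitial fraction read 266.2 and the tubular fraction 225.5. Both sorted libraries were below all feeder and somatic libraries, but the steps were small, as all 8 pairs of neighbours in the order of its 9 levels were closer than 1.40-fold. Slc2a1 was called in no comparison. The sign of its log2 fold turned with quantile normalization in binding over non-binding cells, from 0.15 to -0.17, and in MSC1 over STO day 20, from 0.15 to -0.13.

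Slc2a3 (chr4:157632887-157698034) encodes GLUT3, a transporter with high affinity for glucose. Its brighter probe set (1372326_at) read 82.2 in laminin-binding and 1618.6 in non-binding cells. On STO feeders the signal was 276.5, 160.5, 124.7 and 53.8 on days 1, 5, 10 and 20, and on MSC1 feeders it was 466. It was 192.4 in the interstitial and 42.8, under the floor, in the tubular fraction. Non-binding cells were the highest library and MSC1 day 20 came next, and only 3 of 8 pairs of neighbours were closer than 1.40-fold. The second probe set (1387707_at) lay under the floor in all 9 libraries, between 6.8 and 43.0, so every statement about Slc2a3 rests on 1 probe set.

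Hexokinase 1, from Hk1 (chr20:30773222-30874814), is the common form of the enzyme in most tissues. Its type A probe set (1386929_at) read 299.8 in laminin-binding and 253.5 in non-binding cells. On STO feeders it was 172.2, 223.2, 123.9 and 98.4 on days 1, 5, 10 and 20, and on MSC1 feeders 136.7. The somatic fractions were highest, with 582.2 in interstitial and 449.7 in tubular cells. By this probe set all 5 feeder libraries were under both sorted libraries, and both somatic fractions were above all germ cells. The type B probe set (1398725_at) did not follow. It read 69.8 in interstitial and 101.2 in tubular cells, 152.3 in binding and 242.5 in STO day 5 cells, and the correlation of the 2 probe sets over 9 libraries was -0.02. Hk1 was called by neither. The 6 hexokinase control probe sets were between 1.9 and 62.7, with 6 of 54 values at or above the floor.

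Hk2 (chr4:116792258-116841275) encodes the hexokinase form of muscle and of many growing cells. Its signal (1369006_at) reached the floor in STO day 1 cells, at 63.7, and on MSC1 feeders, at 51.3. In the other 7 libraries it was 21.5 to 48.1. No order can be read from values under the floor.

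**Figure D1:**
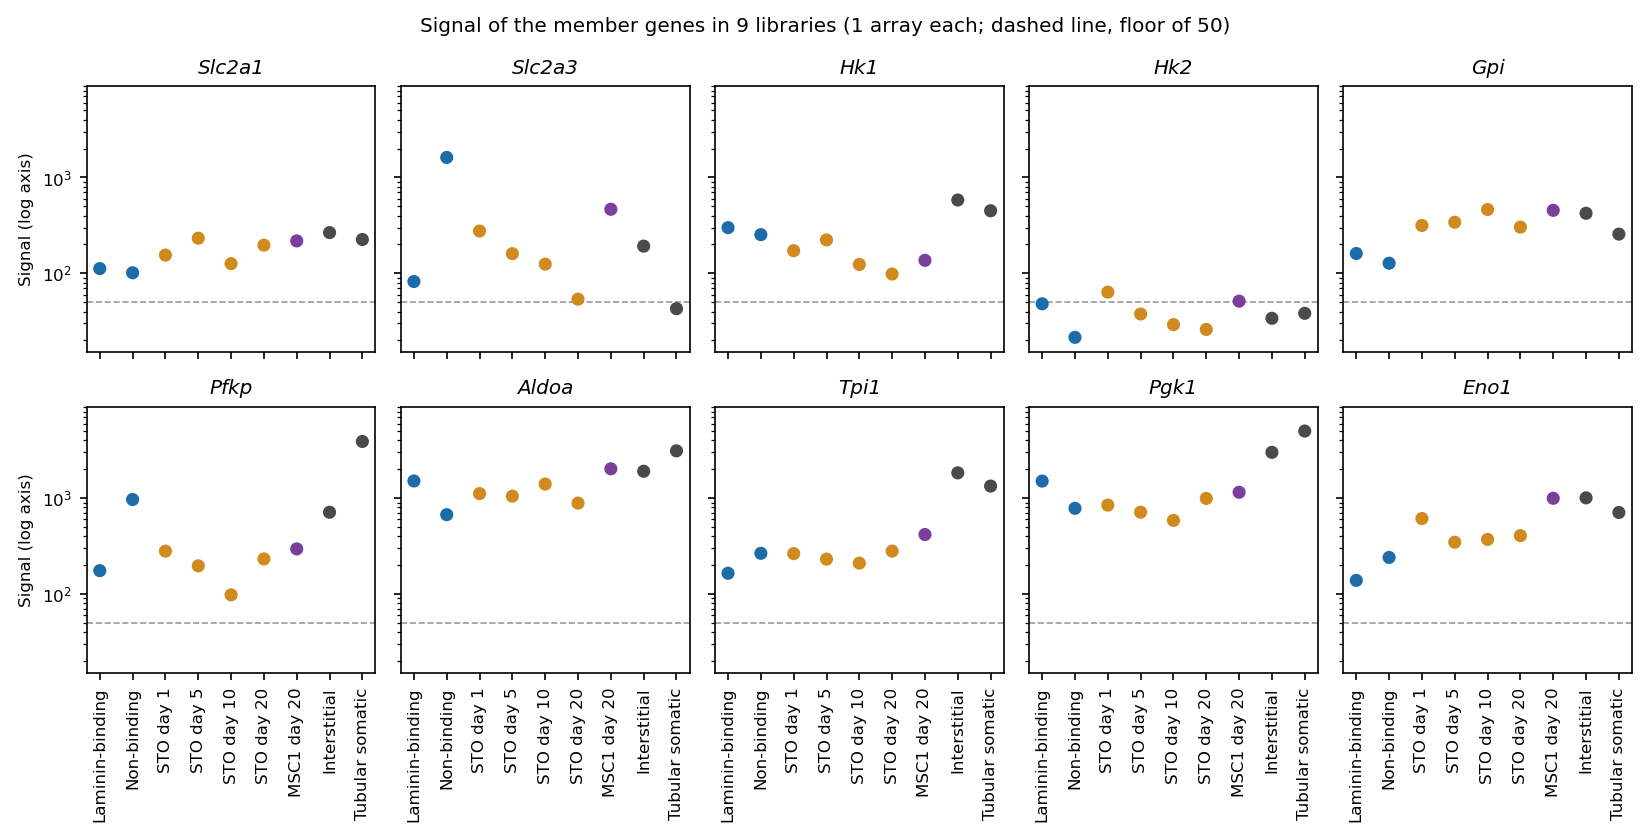
Signals of the 10 genes, each by its brightest probe set on type A, on a log axis, in 9 libraries of 1 array each (blue, laminin-sorted germ cells; orange, STO feeders; purple, MSC1 feeders; grey, somatic fractions; dashed line, floor of 50). Hk1, Tpi1 and Pgk1 show both grey points above all others, and Slc2a3 shows its highest point, 1618.6, in non-binding cells.

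Gpi (chr1:95965389-95996932), the isomerase that makes fructose 6-phosphate, gave 161.1 in laminin-binding and 127.6 in non-binding cells (1371392_at). On STO feeders it was 315.8, 341.1, 462.9 and 303.7 on days 1, 5, 10 and 20, and on MSC1 feeders 454.3. It was 423.3 in interstitial and 256.7 in tubular cells. The sorted germ cells were the 2 lowest libraries, and the feeder libraries overlapped the somatic ones.

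Pfkp (chr17:68639749-68704055) is the platelet-type subunit of phosphofructokinase, the enzyme of the main control step. Its signal (1372182_at) was 175.3 in laminin-binding and 967.6 in non-binding cells. It was 279.7, 196.6, 97.9 and 232.2 on STO days 1, 5, 10 and 20 and 295.4 on MSC1 feeders. The interstitial fraction read 712.1 and the tubular fraction 3899.1. The tubular library was the highest and STO day 10 the lowest, and non-binding cells lay above the interstitial fraction.

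Aldoa (chr1:190832820-190838021), the aldolase of muscle and most other cells, read 1509.4 in laminin-binding and 672 in non-binding cells (1367617_at). It was 1114.1, 1049, 1401.3 and 886.7 on STO days 1, 5, 10 and 20 and 2023 on MSC1 feeders. Interstitial cells had 1906.8 and tubular cells 3111.7. The germ cell and somatic libraries overlapped, because MSC1 day 20 lay above the interstitial fraction. Aldoa was called in no comparison.

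Tpi1 (chr4:159301558-159305088) encodes the enzyme that interconverts the 3-carbon sugars. Its signal (1367603_at) was 164.6 in laminin-binding and 265.7 in non-binding cells, 263.7, 231.1, 209.9 and 280.2 on STO days 1, 5, 10 and 20, and 417.1 on MSC1 feeders. It was 1833.8 in interstitial and 1335.8 in tubular cells. The groups did not overlap, and the lower somatic value stood well over the highest germ cell value.

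Pgk1 (chrX:75336988-75352962) encodes the X-linked phosphoglycerate kinase. Its brightest probe set (1388318_at) read 1506.4 in laminin-binding and 782.2 in non-binding cells, 845.5, 713.1, 584.9 and 992.7 on STO days 1, 5, 10 and 20, and 1151.2 on MSC1 feeders. It was 3003.1 in interstitial and 5006.6 in tubular cells. A second probe set (1387361_s_at) read 364.4 and 398.1 in the sorted cells, 526.4 to 873.9 on STO feeders, 960.7 on MSC1 feeders, and 2177.6 and 2351 in the somatic fractions. Both put the somatic fractions above all germ cells, and their correlation over 9 libraries was 0.77. They disagreed on the laminin-binding cells, which were the highest germ cell library by the first and the lowest by the second. The third probe set (1368906_at) stayed under the floor, between 1.5 and 21.6. The ending _s_at marks probes that can also bind related transcripts, so the second set may share signal with a near copy.

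Eno1 (chr5:166002867-166014252) encodes the enolase found in most cells. Its signal (1367575_at) was 138.7 in laminin-binding and 240.6 in non-binding cells, 612.4, 346.7, 371.1 and 406.4 on STO days 1, 5, 10 and 20, and 996.1 on MSC1 feeders. It was 1005.8 in interstitial and 708 in tubular cells. The sorted cells were the 2 lowest libraries, while MSC1 day 20 lay between the somatic fractions.

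**Figure D2:**
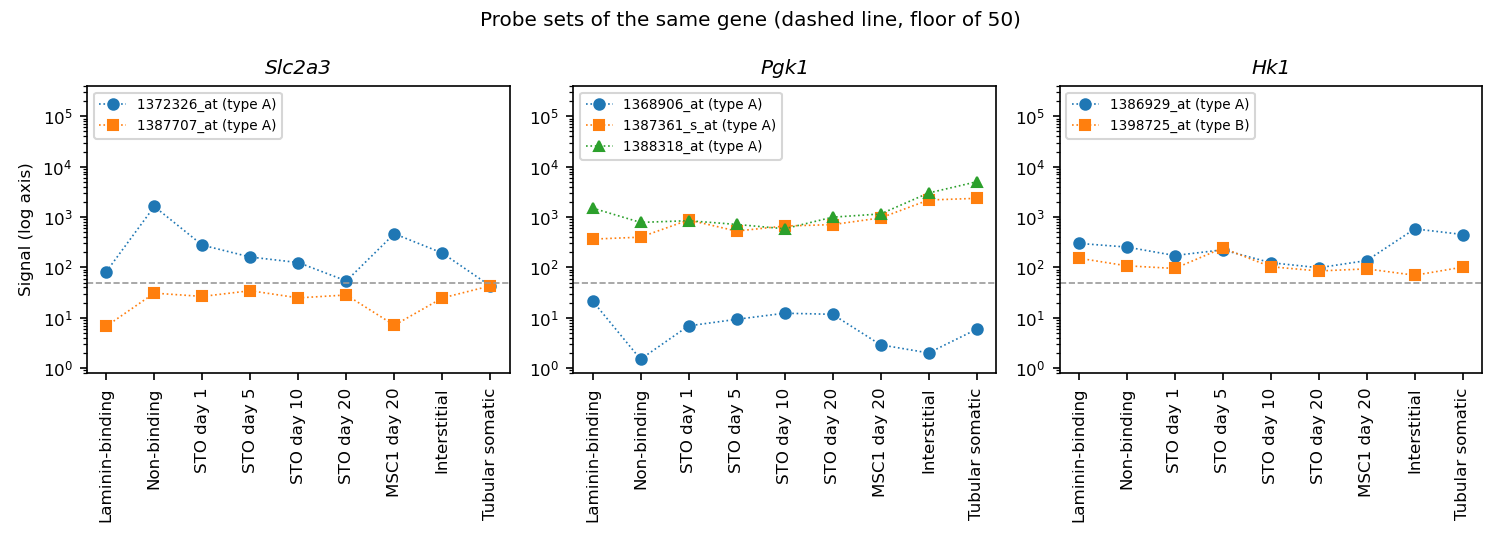
Signals of all probe sets of Slc2a3, Pgk1 and Hk1 that are no controls, on a log axis, in the 9 libraries (dotted lines join 1 probe set; dashed line, floor of 50). One probe set each of Slc2a3 and Pgk1 stays under 50 throughout, 2 of Pgk1 move together in the somatic fractions, and the 2 of Hk1 do not.

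Laminin-binding cells had less Slc2a3 and less Pfkp signal than non-binding cells. Slc2a3 was 19.7-fold lower, a log2 fold of -4.30, and Pfkp 5.52-fold lower. Aldoa was 2.25-fold higher in binding cells, under the call. Pgk1 was 1.93-fold higher by its brightest probe set and 1.09-fold lower by 1387361_s_at, so its direction turned with the probe set. Of the 6 genes with a side of at least 250, 2 were called lower and none higher. Over all probe sets with such a side, 11.4% were called lower and 10.9% higher, or 3.82% and 3.65% of all counted ones. The median log2 fold was 0.15 over 9 measured members and 0.21 over all genes, and after quantile normalization -0.17 and 0.06. Stage markers moved with this contrast. Of 9 spermatocyte genes 7 were called lower in binding cells, with a summed signal of 1360.9 against 18382.3, while Acr was under the floor in both. Of 9 genes of undifferentiated spermatogonia 4 were higher, Ret at 8.10-fold, Sox3 at 6.90-fold, Nanos3 at 6.52-fold and Snap91 at least 5.46-fold, with a summed signal of 5761.2 against 3486.5. Epcam and Etv5 of the same list went the other way, at 2152.6 against 2616.6 and 198.9 against 236.6, under the call. Of 6 general germ cell genes Tex101 and Tdrd1 were lower, at 4.57-fold and 4.37-fold. Of 12 Sertoli genes Cldn11 was 4.07-fold higher, while Vnn1 read 43.4 against 243.7 and Clu 74.3 against 178.7, and Sox9 and Amh were under the floor in both. The matrix gene Col5a2 was 4.13-fold lower, the 1 call among 15 such genes. The part of these genes in the Slc2a3 and Pfkp calls was not tested. In bulk samples like these, fewer cells of a type and less RNA per cell cannot be told apart.

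**Figure D3:**
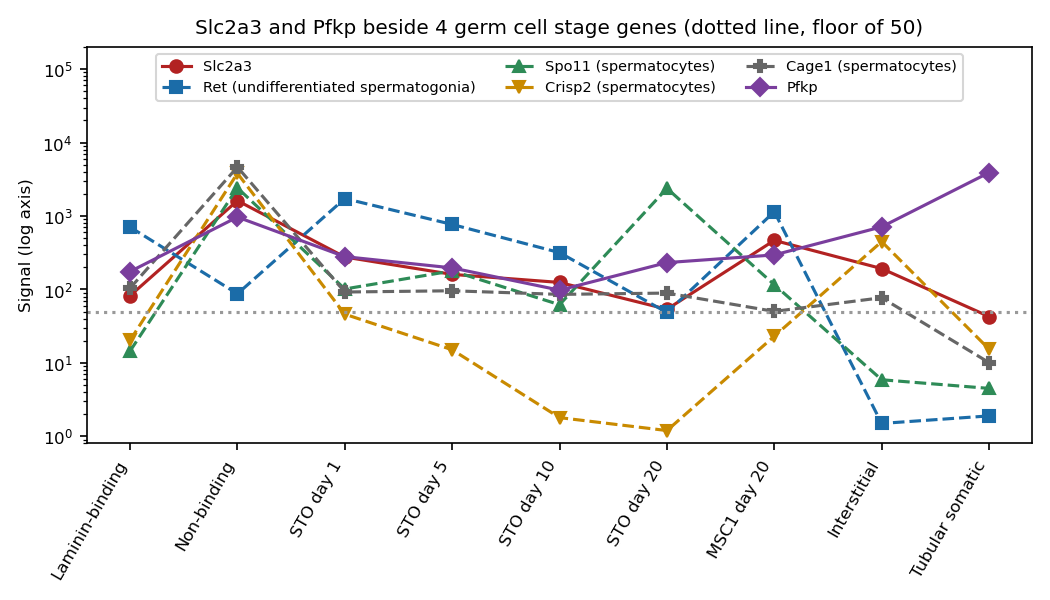
Signals of Slc2a3 and Pfkp (solid lines) with Ret, a gene of undifferentiated spermatogonia, and the spermatocyte-list genes Spo11, Crisp2 and Cage1 (dashed lines), on a log axis in the 9 libraries (dotted line, floor of 50). Slc2a3 and all 3 spermatocyte-list genes are high in non-binding cells, and on STO day 20 Spo11 reads 2381.3, Crisp2 1.2, Cage1 89.3 and Slc2a3 53.8.

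The 7 spermatocyte-list genes called lower in binding cells differed from each other on STO day 20. Spo11, which makes the DNA breaks of meiosis, read 2416.9 in non-binding cells and 2381.3 on STO day 20, and Sycp2, Stag3 and Smc1b were high in both libraries too. Crisp2 read 3811 and 1.2 in the same libraries, Cage1 4641 and 89.3, and Hspa2 263.7 and 49.6. Slc2a3 read 1618.6 and 53.8, high in the first and near the floor in the second like the latter 3 genes. The 3 genes did not follow Slc2a3 on STO day 1 and MSC1 day 20, where it read 276.5 and 466. There Crisp2 read 46.1 and 23.1, Cage1 92.3 and 50.3, and Hspa2 34.5 and 27.4. The genes named here and drawn in the plot of stage genes were chosen after their values were seen. Ret, a receptor gene of undifferentiated spermatogonia, read 1729.5 on STO day 1 and 1144.7 on MSC1 day 20, the libraries next in Slc2a3 signal, and 706.8 in laminin-binding cells, where Slc2a3 was low.

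Against both somatic fractions, laminin-binding cells had less signal of Pfkp, Tpi1 and Eno1. Pfkp was 4.06-fold lower than in interstitial and 22.2-fold lower than in tubular cells. Tpi1 was 11.1-fold and 8.12-fold lower, and Eno1 7.25-fold and 5.10-fold lower, in the same order. Pgk1 was 1.99-fold and 3.32-fold lower by its brightest probe set and so not called, but 5.98-fold and 6.45-fold lower by 1387361_s_at. Of 7 genes bright enough in both fractions 3 were called lower, and none of 3 bright enough in binding cells was called higher. The shares over all probe sets that met the same brightness were 12.0% lower and 11.7% higher. By their brightest probe sets all 9 measured members had a log2 fold below 0 against the mean of the fractions, with a median of -1.13 against 0.09 over all genes. With arrays scaled to a shared 75th percentile this was 9 of 10, the exception being Hk2 near the floor. Marker genes differed as the labels of these populations do, with 6 of 6 general germ cell genes called higher and 9 of 15 matrix genes lower in binding cells, and their part was not tested.

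The remaining members were lower by less. Slc2a1 was 2.37-fold lower than in interstitial and 2.01-fold lower than in tubular cells, Gpi 2.63-fold and 1.59-fold, and Aldoa 1.26-fold and 2.06-fold. Hk1 was 1.94-fold and 1.50-fold lower by 1386929_at but 2.18-fold and 1.50-fold higher by 1398725_at, so its direction turned with the probe set. Slc2a3 differed in direction, 2.34-fold lower than in interstitial cells and 1.64-fold higher than the floor that stands for tubular cells.

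**Figure D4:**
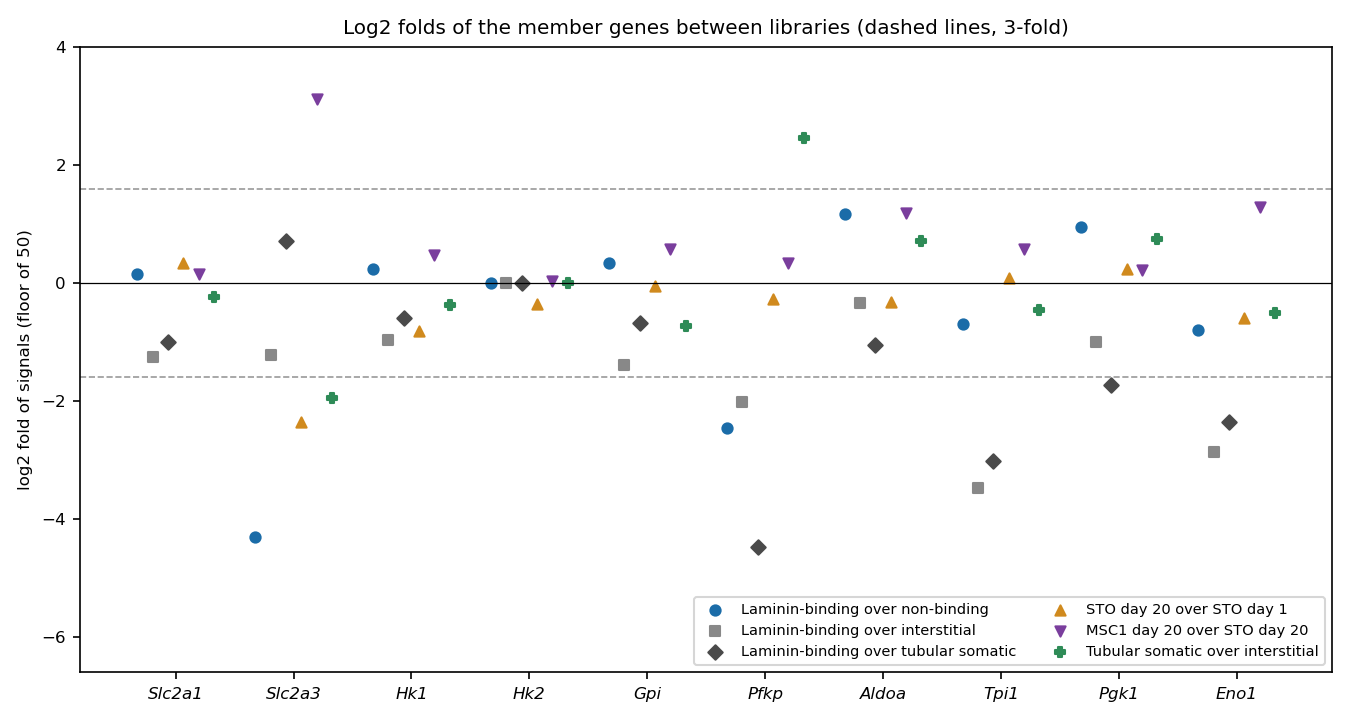
Log2 folds of the 10 genes between libraries after a floor of 50, 1 symbol per pair of libraries (dashed lines, 3-fold; no error bars, since each population has 1 array per type). Pfkp, Tpi1 and Eno1 lie under the lower dashed line against both somatic fractions, and Slc2a3 lies past the lines in 4 pairs, of which the tubular over interstitial pair is not called because its brighter side is 192.4.

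Across all germ cells the somatic fractions stood above for Hk1, Tpi1 and Pgk1, a rule chosen after the values were seen. In these 3 of 9 genes with a signal of at least 250 somewhere, both somatic libraries were above all 7 germ cell libraries, and in none were both below. Among all probe sets this held for 14.8%, and the reverse for 16.8%. For Hk1 it held by 1 of its 2 probe sets, 1398725_at having lower signals in both somatic fractions than in laminin-binding cells. The same 3 genes met it without STO day 20, and both scalings added Slc2a1. By their brightest probe sets, Tpi1 and Pgk1 had a correlation of 0.85 over the 9 libraries but 0.01 over the 7 germ cell libraries. By these probe sets, their likeness over 9 is that of the somatic fractions against the rest. Tpi1 and Eno1 had 0.74 over 9 and 0.86 over 7. Slc2a3 and Pfkp had 0.05 over 9 and 0.81 over 7. Without STO day 20 these pairs had 0.84, 0.74 and -0.02 over 8 libraries and -0.02, 0.86 and 0.92 over 6. Among germ cells, non-binding cells were the highest library for both Slc2a3 and Pfkp, at 1618.6 and 967.6. Their correlation without that library was not computed. These correlations share arrays and scaling and are descriptions. By its other probe set above the floor, 1387361_s_at, Pgk1 was lowest among germ cells in laminin-binding cells, at 364.4, and highest on MSC1 feeders, at 960.7. Tpi1 had its lowest and highest germ cell signals in the same libraries, at 164.6 and 417.1. A correlation of Tpi1 with that probe set was not computed.

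Between the fractions Pfkp was 5.48-fold higher in tubular somatic than in interstitial cells, the 1 call among 8 genes with a side of at least 250. The shares over all such probe sets were 7.33% higher and 9.13% lower. Slc2a3 was at least 3.85-fold lower in tubular cells, with a brighter side under 250. Pgk1 was 1.67-fold higher in tubular cells by its brightest probe set and 1.08-fold by 1387361_s_at. Aldoa was 1.63-fold higher, Gpi 1.65-fold and Eno1 1.42-fold lower. The median log2 fold was -0.37 over 9 members and 0.003 over all genes. The fractions differ in cell types, as the summed signal of 12 Sertoli genes was 13827.9 in tubular and 7533.7 in interstitial cells, and that of 9 Leydig cell genes 2195.5 and 12660.6. The part of these cells in the Pfkp value was not tested.

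The feeder libraries had more signal of Slc2a1, Gpi and Eno1 than either sorted library. In these 3 of 9 genes all 5 feeder libraries lay above both sorted libraries, and in Hk1, by 1 of its 2 probe sets, all lay below, a rule also chosen after the values were seen. Among all probe sets 11.2% met the first and 8.46% the second. Pgk1 met the first by 1387361_s_at, at 526.4 to 960.7 on feeders against 364.4 and 398.1, but not by its brightest probe set. The 3 genes met it without STO day 20 too, while quantile normalization left 2, Gpi and Eno1. For Slc2a1 the gap was a step of 1.12-fold, from 126.2 on STO day 10 to 112.2 in binding cells, within the array error of 1.40-fold. The labels call the sorted cells cultured too, and do not say whether the mouse feeders were removed. The Gapdh 3' to 5' ratio was higher in the feeder libraries without overlap on type A, and with overlap on type B. Matrix genes moved with some of these libraries, the summed signal of 15 such genes being 2239.4 to 7869 on feeders against 1553 and 1857.6 in the sorted cells. The part of either in the 4 genes was not tested.

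Slc2a3 was the member that differed most over time on STO feeders. From day 1 to day 20 it was 5.14-fold lower, the only call among 7 genes with a side of at least 250. The shares over all such probe sets were 8.05% lower and 6.10% higher. Its 4 values went down at each step, and day 10 was 2.22-fold lower than day 1, so without day 20 it was not called. Pfkp on day 10 stood 2.86-fold under day 1, and on day 20 it stood 1.20-fold under it. Hk1 was 1.75-fold lower on day 20 by 1386929_at and 1.12-fold by 1398725_at, and Eno1 1.51-fold lower. Gpi, Tpi1, Pgk1, Slc2a1 and Aldoa were within 1.40-fold. Hk2 was at least 1.27-fold lower, at 63.7 on day 1 and 26 on day 20, which is under the floor. With a floor of 25 its log2 fold was -1.29. The median log2 fold was -0.30 over 10 members and -0.11 over all genes. Pgk1 turned with the probe set, 1.17-fold higher by 1388318_at and 1.24-fold lower by 1387361_s_at. Markers of several cell types moved with the day 20 library. Of 9 genes of undifferentiated spermatogonia 4 were called lower, Ret at least 34.6-fold, Snap91 at least 9.83-fold, Nanos3 at least 6.53-fold and Gfra1 from 328.4 to 58.6, with a summed signal of 2664.1 against 4452.7. Epcam of the same list went the other way, from 768.1 to 2001.9, under the call. Of 9 spermatocyte genes 5 were higher, with a summed signal of 14489.1 against 3145.6, and of 6 general germ cell genes Tex101 and Sycp3. Of 15 matrix genes 4 were higher, Lox at least 14.6-fold, and Fbn1 was lower, with a summed signal of 7560 against 5053.8. Of 9 Leydig cell genes 3 were higher, namely Star, Hsd11b1 and Cyp1b1, while Cyp17a1, Hsd3b1 and Lhcgr stayed under the floor. Scarb1 and Cyp11a1 of that list were lower under the call, at 123 against 253.4 and 50.3 against 57.9. Lyz2 was 6.72-fold higher, the 1 call among 11 macrophage and leukocyte genes. The part of all these in the Slc2a3 call was not tested.

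A limma line through log2 signal against log2 day, over the 4 STO libraries, called 0 of 16066 probe sets after Benjamini-Hochberg adjustment, a share of 0%, with 1500 at an unadjusted p under 0.05. Slc2a3 had a slope of -0.50 per doubling of day (SE 0.14, limma adjusted p = 0.426), and the other 10 member probe sets had slopes from -0.19 to 0.03. On linear day the same limma fit called 1425 probe sets, and 5.21% of those tested fell. Slc2a3 was then the 1 falling member, with an adjusted p of 0.0166, and over the other settings that tested it the limma adjusted p was 0.0714 to 0.981. The spread in these fits is the distance from a line and not that of repeated cultures.

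On day 20, cells on MSC1 feeders had more Slc2a3 signal than cells on STO feeders. The 8.66-fold difference was the 1 call among 7 genes with a side of at least 250. Eno1 was 2.45-fold and Aldoa 2.28-fold higher, Gpi 1.50-fold, Tpi1 1.49-fold and Hk1 1.39-fold by its type A probe set and 1.10-fold by the other. The shares over all such probe sets were 8.14% higher and 6.74% lower. The share of calls that were higher was 54.7%, and 39.8% with arrays scaled to a shared 75th percentile. The median log2 fold was 0.52 over 10 members and 0.23 over all genes, and after quantile normalization 0.52 and 0.04. Against the STO libraries of days 1, 5 and 10, MSC1 cells had 1.69-fold, 2.90-fold and 3.74-fold more Slc2a3, so the size rests on the STO library it is set against. Against STO day 10, Pfkp was called as well, at 3.02-fold higher. Marker genes moved with this pair too. Of 9 genes of undifferentiated spermatogonia 4 were higher on MSC1 feeders, Ret at least 22.9-fold, Snap91 at least 6.82-fold, Gfra1 6.41-fold, and Nanos3 at 349.9 against 21.6, and Epcam was 3.15-fold lower. Of 9 spermatocyte genes Spo11, Sycp2 and Smc1b were lower, with a summed signal of 3584.1 against 14489.1, and of 6 general germ cell genes Tex101 was. Of 12 Sertoli genes Cldn11 was 11.1-fold higher, with a summed signal of 2227.1 against 1034.5, while Sox9 and Amh were under the floor in both. The muscle gene Tpm2 and the matrix gene Sparc were 3.25-fold and 3.63-fold higher, and of 9 Leydig cell genes Star and Hsd11b1 were lower. Scarb1, Cyp11a1 and Insl3 of that list were higher under the call, at 312.5 against 123, 80.2 against 50.3 and 64.8 against 50.2. The part of these in the Slc2a3 value was not tested.

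The other glucose and hypoxia lists together hold 71 genes on the arrays. In binding over non-binding cells 2 of the 32 bright enough to be called were higher and 5 lower, or 6.25% and 15.6%, beside 10.9% and 11.4% of all such probe sets. Against both somatic fractions 1 of 24 was higher and 4 of 25 lower, or 4.17% and 16.0%, beside 11.7% and 12.0%. On STO day 20 over day 1, 3 of 31 were higher and 2 lower, or 9.68% and 6.45%, beside 6.10% and 8.05%. On MSC1 over STO feeders 1 of 30 was higher and 3 lower, or 3.33% and 10.0%, beside 8.14% and 6.74%. In tubular over interstitial cells 1 of 35 was higher and 3 lower, or 2.86% and 8.57%, beside 7.33% and 9.13%. Counts of 1 to 5 are too few to set the lists apart from all probe sets, and the called genes below are given as single values. For these genes, a fold against both somatic fractions is the smaller of the 2. Of 11 other glycolytic enzyme genes on the arrays, 1 was called higher in binding than in non-binding cells, the aldolase gene Aldoc at least 6.36-fold, and 1 lower in tubular than interstitial cells, the neuronal enolase gene Eno2 at 6.90-fold. The median log2 fold of this list against both somatic fractions was 0.21, with no calls. Of 9 other hexose transporter genes, Slc2a8 was called 3.08-fold higher in binding cells than in both somatic fractions, and the urate transporter gene Slc2a9 3.12-fold lower in tubular than interstitial cells. In the list of 6 genes around fructose bisphosphate, Fbp1 of gluconeogenesis was at least 7.36-fold lower in binding than in non-binding cells.

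Of 8 genes for lactate and pyruvate transport, Emb, a partner protein of the monocarboxylate transporters, was 4.18-fold higher in binding than non-binding cells, 3.97-fold lower on STO day 20 than on day 1 and 3.78-fold higher on MSC1 than on STO feeders. Its signal in those libraries was 452.4, 108.3, 99.1, 393 and 374.9 for binding, non-binding, STO day 20, STO day 1 and MSC1. Of 11 pyruvate dehydrogenase genes, 2 were lower in binding than non-binding cells, the testis subunit gene Pdha2 at 7.13-fold and Dld at 3.03-fold. Among 6 pentose phosphate genes, Tkt, a transketolase, was 6.16-fold lower in binding cells than in both somatic fractions. Of 20 genes of the hypoxia-inducible factor pathway 11 were bright enough in both fractions, and 3 of these were lower in binding cells, namely Epas1 at 13.5-fold, P4ha1 at 8.74-fold and Hif1a itself at 3.11-fold, with a list median of -0.51. On STO day 20 against day 1, 2 of the 10 bright enough were called higher, Hif1a at 3.11-fold and P4ha1 at 3.80-fold, and 0 lower. The list median was -0.18.

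In STO day 20 over day 1 the pentose phosphate gene Rpe was 3.72-fold higher and Pdk1, a kinase that switches off pyruvate dehydrogenase, 3.78-fold lower. Rpe was 3.93-fold lower in binding than in non-binding cells and P4ha1 3.26-fold lower. In MSC1 over STO day 20, Rpe was 3.18-fold, Pdha2 3.48-fold and Bnip3 3.02-fold lower. In tubular over interstitial cells the phosphatase gene Pdp2 was 5.35-fold higher and Ndrg1 12.6-fold lower. Set against both somatic fractions, the median log2 folds in binding cells were 0.73 for the other transporters, -0.54 for lactate and pyruvate transport, 0.12 for the fructose bisphosphate genes, 0.15 for pyruvate dehydrogenase and -0.21 for the pentose phosphate genes. The members had -1.13 and all genes 0.09.

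The genes whose log2 signal was most like a member over the 9 libraries were searched on type A among 6350 or 6351 probe sets for the members named here. For Slc2a3 they were Ndufaf3 (r = 0.93), Ggnbp1 (0.92) and Fam118a (0.91), for Pfkp Rpl7 (0.95), Serinc5 (0.94) and Adk (0.93), for Tpi1 Abhd4 (0.98), S1pr3 (0.98) and Olfml3 (0.98), and for Pgk1 Pla2g5 (0.99), S100a10 (0.98) and Lgals3bp (0.98). Each is the top of that search, with 9 points. Without STO day 20 the r of these 12 genes was 0.895 to 0.997 over 8. In Ndufaf3, as in Slc2a3, non-binding cells were the highest library, at 1530.3 against 13.3 to 234.5 elsewhere, and MSC1 day 20 came next. The correlation without non-binding cells was not computed.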

How the data were processed

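The authors deposited linear intensities, with 1 value per probe set, each array having been scaled to a target of 250, per the labels. The labels give 50 ng of total RNA and 2 amplification rounds. For software and background treatment, nothing is stated in the sources used here. The labels' scale factors were 0.391 to 1.51 for type A arrays and 1.05 to 4.01 for type B arrays. From 59.4% to 70.3% of type A and 68.0% to 74.3% of type B probe sets were at or above 50.

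Probe sets were named from the platform annotation where it gives 1 gene, with symbols updated through RefSeq gene identifiers. Deposited intensities were raised to a floor of 50 and taken to log2. The probe set with the highest mean log2 signal stood for its gene, taken from type B only for genes that type A lacks. A call needed a brighter side of at least 250 and a fold of at least 3, against each of the somatic fractions where both are compared. The culture trend used limma 3.58.1 in R 4.3.3 with a variance trend, for probe sets with a mean of at least 100 and with 2 residual degrees of freedom, adjusted by the Benjamini-Hochberg method at 0.05. The fit and the call rule were tested on simulated data. Other steps used Python 3.11.15 with pandas 2.3.3 and numpy 2.4.6.

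All 10 genes are named, and of each gene list up to 4 called genes with the largest folds. The genes, lists and tests were chosen with earlier results of these data known. The share of all probe sets is given among those bright enough to be called. This denominator was chosen after the data were seen, in place of all 31042 counted probe sets. The rules on groups of libraries that do not overlap were also chosen after the values were seen. The alternatives were other floors, scalings, fold and brightness limits, probe set choices and trend settings.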

Additional observations from a re-analysis of the deposited data

How the results depend on the processing

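Floors, scalings and, for the 3 genes with several, other probe sets gave 230 log2 folds of members. Of these 188 moved by less than the array error, 42 moved by more, and 0 of those called changed sign. The array error used here was 1 standard deviation for the comparison, a log2 fold of 0.20 to 0.27. The 188 include folds that could not move, since a floor changes no fold whose signals all lie above it. Pfkp, Tpi1 and Eno1 kept their calls against both somatic fractions under both scalings. With a fold of 2 in place of 3, all probe sets called numbered 4579 for binding over non-binding cells, 3544 against both somatic fractions, 3238 between STO days 20 and 1, 3763 for MSC1 over STO and 3627 for tubular over interstitial cells, against 2318, 1870, 1440, 1605 and 1772. The members called in MSC1 over STO were then 3 in place of 1. With the second-brightest probe set 1 member was called in binding over non-binding cells in place of 2, and 0 in STO day 20 over day 1 and in MSC1 over STO. With the mean over probe sets the last 2 were also 0, because the dim Slc2a3 probe set enters. With a floor of 100, STO day 20 over day 1 had 0. With a brighter side of at least 100, tubular over interstitial had 2 in place of 1, adding Slc2a3. With STO day 10 in place of day 20, added once the data had been seen, the STO comparison called 0 members and 186 probe sets, and MSC1 over STO called 2 members and 557 probe sets. The limma trend called 1425 probe sets on linear day, 24 without STO day 20 and 1814 without STO day 1, against 0. No paired analysis was possible because each group has 1 array per type. With 1 library per population, no fold here has a replicate check, and values near the floor of 50 are the least sure.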
